A study of Mus musculus with 6 samples.

Results

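Iron- and 2-oxoglutarate-dependent dioxygenases are enzymes that hold a ferrous iron in the active site and use oxygen and 2-oxoglutarate to hydroxylate or demethylate proteins, DNA or RNA. The family includes the JmjC histone demethylases, the TET enzymes that oxidise methylated cytosine, the AlkB proteins that remove methyl groups from nucleic acids, the prolyl and asparaginyl hydroxylases that restrain the hypoxia-inducible factor HIF, and the prolyl and lysyl hydroxylases that modify collagen chains. Macrophages use several of them, since oxygen sensing and the removal of repressive histone marks take part in macrophage activation, and since macrophages secrete proteins with collagen-like stretches such as complement C1q. The members described here were 41 named genes, taken by symbol from the 55487 Ensembl mouse genes of each library, and all 41 were found. Of these, 39 had a mean TPM of at least 0.5 over all libraries and were tested, among 13829 genes in all that met this limit. TPM is the authors' unit, a gene's read count per length of the gene, set to the same total in every library. Comparisons of level between genes depend on the length taken for each gene.

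The libraries came from J774 cells, a mouse macrophage line, transfected by a liposome reagent with control siRNA or with NCOA4 siRNA, with 3 biological replicates of each. A small interfering RNA (siRNA) lowers the transcript it matches, and NCOA4 is the cargo receptor that brings the iron store ferritin to the lysosome. Both groups were kept in the same medium and carried no other label of treatment, and the labels give no time between transfection and RNA isolation. The comparison asked how the transcriptome differed between NCOA4-deficient and control macrophages, in cells from a single line. The labels call the libraries of a group biological replicates but do not name separate cultures, so p-values measure the spread between these libraries.

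Ncoa4 was at 19.7, 22.5 and 22.4 TPM with control siRNA and at 9.63, 8.60 and 8.88 TPM with NCOA4 siRNA, which leaves 41.9% of the control mean. All 7 macrophage markers looked at, among them Adgre1, Csf1r and Cd68, were above 0.5 TPM, with a summed level of 8510 to 8684 TPM in control and 8772 to 8873 TPM in NCOA4-deficient cells. Single markers moved in different directions within that sum, most of which is Lyz2. Adgre1 and Csf1r rose (adjusted p = 0.0248 and 0.0218, limma) and Cd14 fell (adjusted p = 0.0361, limma), while Lyz2, Cd68, Itgam and Spi1 did not pass, and the part of these shifts in the results below was not tested. None of 6 fibroblast and 4 epithelial markers reached 0.5 TPM on average, and Col1a2, Dcn and Krt8 were at 0 in every library. Reads rebuilt from TPM and gene length numbered 15502131 to 18282107 per library, and the tested members had between 56 and 4225 reads each. Control replicate 1 stood apart from the other control libraries. Its chi-square per gene was 11.6 and 11.7 against control replicates 2 and 3, which differed by 3.60, and it was 1.96 to 2.35 among the NCOA4 siRNA libraries, where counting noise gives about 1. Genes of the mitochondrial genome took 12.9% of TPM in control replicate 1 and 9.36% to 10.2% in the other libraries. Values without control replicate 1 are given below where a call depended on it. In bulk RNA, fewer expressing cells and less RNA per cell cannot be told apart.

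Most of the dioxygenase transcripts stayed close to their control level after NCOA4 depletion. Of the 39 tested genes, 3 were lower with NCOA4 siRNA at an adjusted p under 0.05, namely Jmjd6, P4ha2 and Egln1, and 0 were higher. The 3 genes are 7.69% of the members, beside 5.42% of all genes tested that passed in either direction, 2.31% that passed as lower and 3.11% that passed as higher. Adjusted p-values come from limma on log2(TPM + 0.5), corrected over all 13829 genes by the Benjamini-Hochberg method (BH). With limma-voom on rebuilt reads the same 3 genes were called lower and Tet3 higher, beside 10.9% of all genes that limma-voom called in either direction. None of the members passed when a 1.5-fold change was required as well, by limma or by limma-voom. Of all genes, 1.18% did by limma, and 217 of 13609 did by limma-voom. At an unadjusted p under 0.05 there were 8 members, or 20.5% beside 21.6% of all genes, with 7 lower beside 8.84% of all genes and 1 higher beside 12.7%. The median log2 fold change of the 39 members was 0.01, beside 0.03 for all genes tested. Of the members, 21 lay above 0 and 18 below. The mean with NCOA4 siRNA ranged from 73.0% of control for P4ha2 to 123% for Alkbh7. The median direction depended on the scaling of the libraries, since the median of the members was -0.048 after centring each library on its median and -0.027 after quantile normalization, against -0.027 and -0.0065 for all genes.

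**Figure D1:**
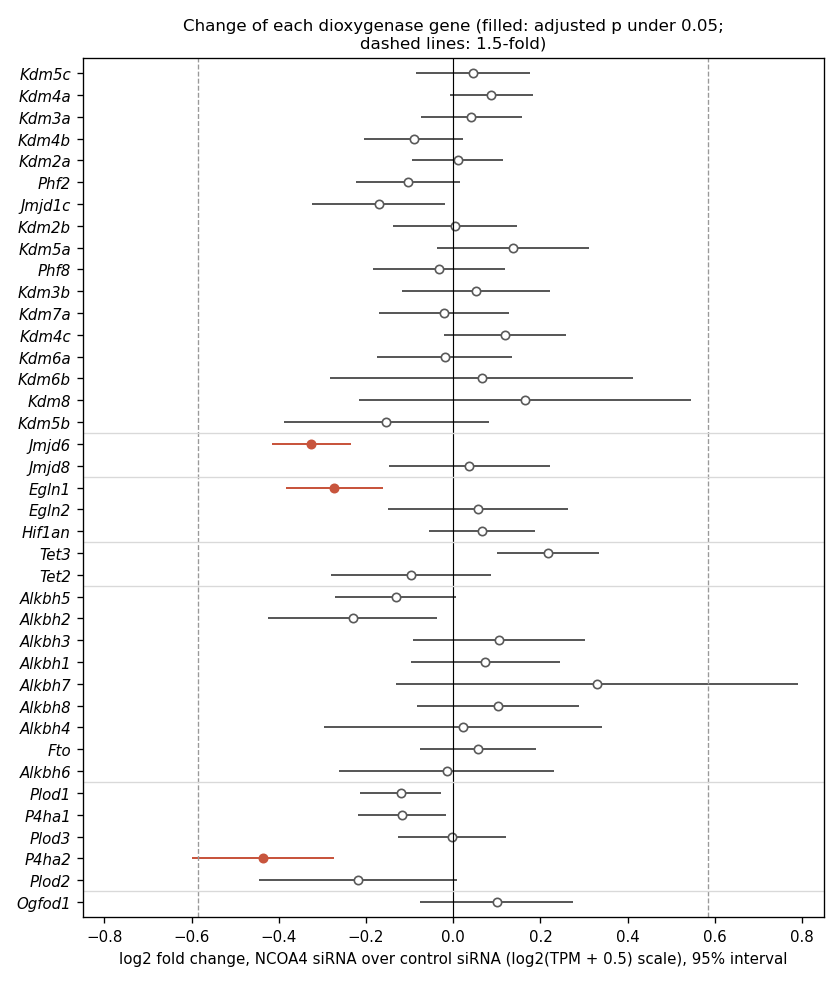
Log2 fold change of each of the 39 tested dioxygenase genes (NCOA4 siRNA over control siRNA, on the log2(TPM + 0.5) scale) with its 95% interval, grouped from top to bottom as JmjC demethylases, other JmjC proteins, HIF hydroxylases, TET enzymes, AlkB family, collagen hydroxylases and Ogfod1. Filled points mark Jmjd6, Egln1 and P4ha2, the 3 genes at an adjusted p under 0.05, and the dashed lines mark a 1.5-fold change in either direction, which only the intervals of P4ha2 and Alkbh7 reach.

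Levels differed far more between the genes than between the conditions. Egln1 was the most abundant member at a mean of 114 TPM over the 6 libraries, followed by Plod1 at 98.8 TPM, P4ha1 at 87.7 TPM, Plod3 at 77.6 TPM, Jmjd6 at 71.2 TPM and Alkbh5 at 63.7 TPM. These 6 genes were above 50 TPM, 28 lay between 10 and 50 TPM, 5 lay below 10 TPM and 2 were under the limit of detection used here. The lowest detected members were Plod2 at 9.69 TPM, Kdm6b at 9.37 TPM, Tet2 at 6.78 TPM, Kdm8 at 6.07 TPM and Kdm5b at 3.77 TPM. Neighbours in this order mostly shared part of their range. The library ranges of P4ha1 and Plod3 did not overlap, nor did those of Alkbh5 and Alkbh2, Kdm5c and Kdm4a, Kdm4a and Kdm3a, Kdm6b and Tet2, or Kdm8 and Kdm5b, while Egln1, Plod1 and P4ha1 overlapped in turn. The median member was at 23.8 TPM, beside 16.9 TPM for the median gene tested. Replicates lay close together, with a median coefficient of variation of 5.00% in control and 3.56% in NCOA4-deficient cells.

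**Figure D2:**
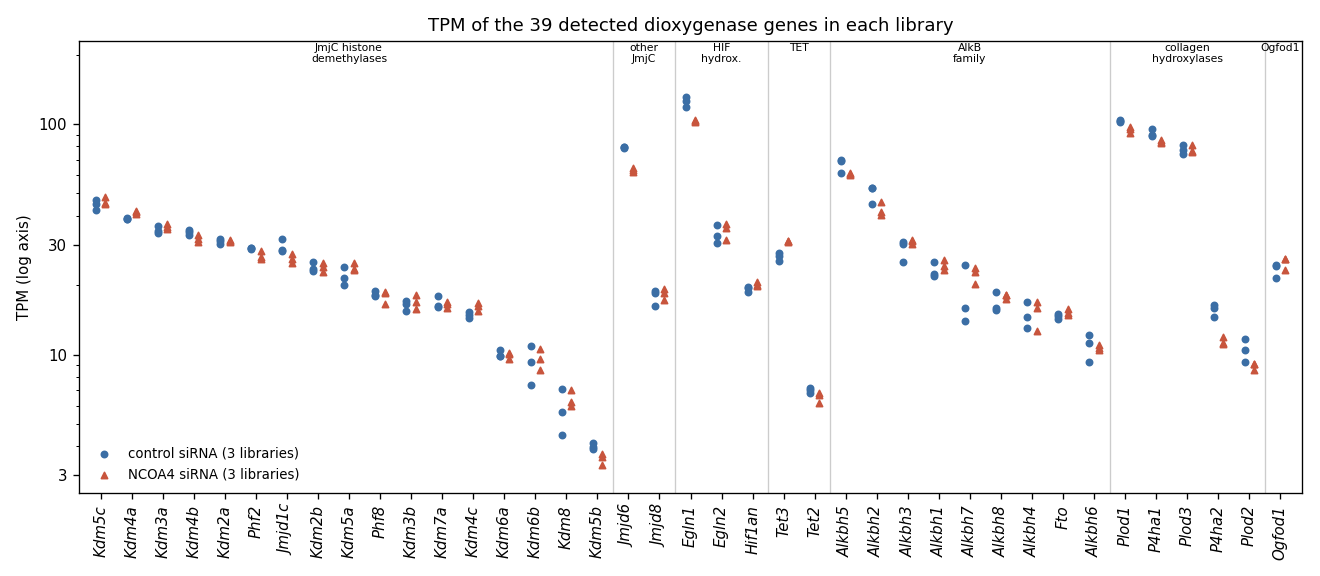
TPM of each of the 39 detected dioxygenase genes in every library on a log axis, with control siRNA as circles and NCOA4 siRNA as triangles, ordered by level within each role. The span from Kdm5b (3.77 TPM) to Egln1 (114 TPM) is much wider than any gap between the groups, and the triangles of Jmjd6, Egln1 and P4ha2 lie below all their circles.

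Jmjd6 had the smallest adjusted p of the family. It encodes a JmjC protein of the nucleus that hydroxylates lysines of splicing factors, and it lies on the minus strand of chromosome 11 from 116837432 to 116843449 (ENSMUSG00000056962, in GENCODE M21 on GRCm38). In single libraries it was at 79.8, 79.5 and 78.5 TPM in control replicates 1 to 3 and 61.9, 62.9 and 64.7 TPM in NCOA4 siRNA replicates 1 to 3. Every NCOA4 siRNA library was therefore below every control library, with a gap much wider than the spread within either group. The mean fell from 79.3 ± 0.702 to 63.2 ± 1.38 TPM (SD, n = 3 each), which on the log2 scale is -0.33 (standard error 0.0371, 95% interval -0.41 to -0.24, adjusted p = 0.00704, limma with BH). The exact two-sided permutation test gave p = 0.1, the smallest that 3 libraries against 3 allow. Without control replicate 1 the log2 fold change was -0.32 with an adjusted p of 0.0103, and without NCOA4 siRNA replicate 2 it was -0.32 with an adjusted p of 0.0537. Jmjd6 overlaps Mettl23 on the opposite strand, which was at 6.44 TPM, and whether the authors' counting used strand is not given in the sources used here. Jmjd8, a JmjC protein of the endoplasmic reticulum, was at 17.9 ± 1.39 and 18.3 ± 1.07 TPM (SD, n = 3 each), with overlapping groups.

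The HIF hydroxylases mark HIF subunits for destruction or block their coactivators when oxygen and iron are available. Egln1, the main HIF prolyl hydroxylase in most cells and itself a HIF target, lies on the minus strand of chromosome 8 from 124908587 to 124949324 (ENSMUSG00000031987). It was at 118, 125 and 131 TPM with control siRNA and at 104, 103 and 102 TPM with NCOA4 siRNA. The groups did not overlap, and the NCOA4 siRNA libraries lay closer together than the control libraries. Egln1 fell from 125 ± 6.23 to 103 ± 1.29 TPM (SD, n = 3 each), which on the log2 scale is -0.27 (standard error 0.0460, 95% interval -0.38 to -0.16, adjusted p = 0.0230, limma with BH). Its adjusted p was 0.00933 without control replicate 1 and between 0.0596 and 0.107 without any other single library. Egln2 had 32.8, 30.3 and 36.4 TPM with control siRNA and 31.4, 36.8 and 35.4 TPM with NCOA4 siRNA. Its groups overlapped, and its 95% interval ran from -0.15 to 0.26 on the log2 scale. Hif1an, the asparaginyl hydroxylase that keeps HIF from its coactivators, was at 18.6, 19.6 and 19.5 TPM and at 20.7, 19.98 and 19.8 TPM. Its groups were just apart, and its log2 fold change of 0.07 had an adjusted p of 0.506 (limma, BH). Egln3, the remaining HIF prolyl hydroxylase, had 2 reads in control replicate 3, 2 reads in NCOA4 siRNA replicate 3 and 0 reads in the other libraries, and was not tested.

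Collagen prolyl hydroxylase is a tetramer of catalytic alpha subunits, encoded by P4ha1 and P4ha2, and protein disulfide isomerase, encoded by P4hb. P4ha2 (ENSMUSG00000018906, chromosome 11, 54100095 to 54131665, plus strand) showed the largest change of the members that passed. Its TPM was 14.5, 16.4 and 15.9 with control siRNA and 11.9, 11.2 and 11.2 with NCOA4 siRNA, on 517 to 622 and 381 to 430 reads. All the NCOA4 siRNA libraries were lower than all the control libraries. P4ha2 fell from 15.6 ± 0.981 to 11.4 ± 0.396 TPM (SD, n = 3 each), which on the log2 scale is -0.44 (standard error 0.0677, 95% interval -0.60 to -0.28, adjusted p = 0.0184, limma with BH). The adjusted p was 0.0154 without control replicate 1, and it lay between 0.0619 and 0.0934 without control replicate 3 or without any NCOA4 siRNA library. P4ha1 was at 89.95, 95.01 and 88.8 TPM and at 85.6, 82.9 and 83.7 TPM, and Plod1, a lysyl hydroxylase, at 102, 103 and 104 TPM and at 91.9, 97.0 and 95.1 TPM. In both genes the groups did not overlap, but neither passed the threshold. The log2 fold changes of -0.12 in each case had adjusted p-values of 0.168 and 0.130 (limma, BH). Both passed after centring each library on its median, with adjusted p-values of 0.0381 and 0.0495. Plod2, whose product hydroxylates collagen telopeptides, was at 11.7, 10.5 and 9.25 TPM and at 9.07, 9.09 and 8.54 TPM, and its log2 fold change of -0.22 moved to -0.14 without control replicate 1. Plod3, which also transfers sugars to collagen hydroxylysine, was at 77.7 ± 3.58 and 77.5 ± 3.17 TPM (SD, n = 3 each), with overlapping groups. The 5 collagen hydroxylases thus had 1 member that fell and 4 that did not pass, beside 2.31% of all genes that fell. Their median log2 fold change was -0.12, beside 0.03 for all genes. The fibroblast collagens Col1a2 and Col3a1 were at 0 in all libraries.

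The bases upstream of the genes that fell are shown because Egln1 and P4ha2 are known HIF targets and HIF binds the core letters ACGTG or GCGTG. Within the 250 bases before the RefSeq start (GRCm38.p6), P4ha2 held 3 matches to these letters on either strand, Egln1 held 2 and Jmjd6 held 2. Such a match was found in 23 of 35 members with a promoter in the RefSeq table (65.7%) and in 41.5% of all 27025 genes there. The stretches of 30 bases around the matches are given 5′ to 3′ on the strand of the gene, with the matched letters, or their reverse complement, in capitals.
P4ha2, chr11:54100805-54100834, plus strand: tggtgccggtccCACGCggcgcaaggaggt
P4ha2, chr11:54100834-54100863, plus strand: tgtgcatcgcatACGTGcagcGCGTGgcgg
Egln1, chr8:124949363-124949392, minus strand: gcccggcccgccGCGTGcgcgcggcccccg
Egln1, chr8:124949305-124949334, minus strand: gggccgtggtgtACGTGcagcgcgcgcgga
Jmjd6, chr11:116843660-116843689, minus strand: aggccgggctcgCACGTaggggagtccagg
Jmjd6, chr11:116843450-116843479, minus strand: ccaacatggcgcccaattgGCGTGcatgaa
The second P4ha2 stretch and the second Egln1 stretch share a run of 13 bases, tACGTGcagcgcg, which begins 79 bases before the start of P4ha2 and 69 bases before that of Egln1. The run was picked, after the sequences had been seen, as the longest that these 2 windows share, so its presence in both was fixed. None of the other promoter windows among the 32851 of the table held it. How often other pairs of promoters share a run of this length was not tested, so its rarity carries no weight here. In GENCODE M21 the P4ha2 stretches lie inside the gene, downstream of its outermost start and outside its exons, the second Egln1 stretch reaches into the annotated 5′ UTR of Egln1, and the Jmjd6 stretches lie over the first exon of Mettl23. A match is a description of the letters and not evidence of binding in these cells.

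The members known as HIF targets from other systems were Egln1, Egln3, Kdm3a, Kdm4b, Kdm4c, P4ha1, P4ha2, Plod1 and Plod2, a list written with earlier results of these data known. Of its 8 tested genes, 2 fell (Egln1 and P4ha2), 0 rose and 6 did not pass, beside 2.31% of all genes that fell and 3.11% that rose. The median log2 fold change was -0.12, beside 0.01 for all members and 0.03 for all genes, with 6 genes below 0. Kdm3a, a demethylase of repressive histone marks that is strongly induced by hypoxia in many cells, was at 34.2, 36.2 and 33.8 TPM with control siRNA and at 36.7, 34.9 and 35.7 TPM with NCOA4 siRNA. Its groups overlapped, and its 95% interval of -0.07 to 0.15 lay within a 1.5-fold change. Kdm4b and Kdm4c, which remove trimethyl marks, differed in sign, at -0.09 and 0.12 on the log2 scale (adjusted p = 0.321 and 0.293, limma with BH).

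Of the 17 JmjC histone demethylases, all were detected and none passed the threshold (limma, BH), beside 5.42% of all genes. Of the 17, 10 lay above 0 and 7 below 0, with a median log2 fold change of 0.01. This split depended on the scaling, with 12 of the 17 below 0 after median centring, 10 after quantile normalization and 9 without mitochondrial genes. At an unadjusted p under 0.05 (limma) there was 1, Jmjd1c, or 5.88% beside 21.6% of all genes. By limma-voom on the rebuilt reads none of the 17 passed either, beside 10.9% of all genes. Jmjd1c, a large relative of Kdm3a, was at 28.1, 31.7 and 28.5 TPM with control siRNA and at 27.2, 26.03 and 25.1 TPM with NCOA4 siRNA. The groups did not overlap, and the log2 fold change of -0.17 had a 95% interval of -0.32 to -0.02 and an adjusted p of 0.184 (limma, BH). The other member of that branch, Kdm3b, was at 16.3 ± 0.816 and 16.9 ± 1.15 TPM (SD, n = 3 each).

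The branches of the demethylases, which act on different histone lysines, showed no common direction. Kdm2a and Kdm2b, which bind CpG islands, were at 30.99 ± 0.773 and 31.2 ± 0.362 TPM and at 23.9 ± 1.14 and 24.0 ± 1.09 TPM (SD, n = 3 each), with overlapping groups. Kdm4a was at 39.2, 38.6 and 38.7 TPM with control siRNA and at 42.02, 40.6 and 41.3 TPM with NCOA4 siRNA. The groups did not overlap, but the log2 fold change of 0.09 did not pass (adjusted p = 0.261, limma with BH). Kdm5a, Kdm5b and Kdm5c, which erase a methyl mark of active promoters, had log2 fold changes of 0.14, -0.15 and 0.05, and none passed. Kdm5b was also the least abundant detected member, at 3.99 ± 0.119 and 3.54 ± 0.198 TPM (SD, n = 3 each), with groups that did not overlap. Kdm6a and Kdm6b remove the Polycomb mark, and Kdm6b is induced by lipopolysaccharide in macrophages. Kdm6a was at 10.1 ± 0.373 and 9.94 ± 0.322 TPM (SD, n = 3 each). Kdm6b was at 10.9, 7.38 and 9.27 TPM with control siRNA and at 10.5, 8.60 and 9.53 TPM with NCOA4 siRNA, so its replicates spread more widely than the groups differed. Its log2 fold change was 0.07, and 0.19 without control replicate 1, passing in neither case. Its 95% interval of -0.28 to 0.41 was the widest of the demethylases after that of Kdm8.

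Phf2, Phf8 and Kdm7a read an active histone mark with a PHD finger and remove repressive ones. Phf2 was at 29.0, 28.9 and 28.8 TPM with control siRNA and at 25.9, 26.5 and 28.2 TPM with NCOA4 siRNA. Its control libraries nearly coincided and its groups did not overlap, but the adjusted p was 0.282 (limma, BH). Phf8 was at 18.3 ± 0.512 and 17.9 ± 1.09 TPM and Kdm7a at 16.7 ± 0.987 and 16.5 ± 0.462 TPM (SD, n = 3 each). Kdm8, a JmjC protein with arginine hydroxylase activity, was at 5.61, 7.11 and 4.50 TPM and at 5.98, 6.99 and 6.24 TPM on as few as 56 reads, and its 95% interval of -0.21 to 0.54 nearly reached a 1.5-fold rise.

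Of the TET enzymes, Tet3 came closest to the threshold among the genes above 0. It lies on the minus strand of chromosome 6 from 83362373 to 83459084 (ENSMUSG00000034832) and was at 27.6, 26.8 and 25.4 TPM with control siRNA and at 31.1, 30.8 and 31.1 TPM with NCOA4 siRNA. The NCOA4 siRNA libraries nearly coincided and all lay above the control libraries. The mean was 26.6 ± 1.11 and 31.01 ± 0.150 TPM (SD, n = 3 each), and the log2 fold change of 0.22 (standard error 0.0483, 95% interval 0.10 to 0.33) had an adjusted p of 0.0521 (limma, BH). The adjusted p was 0.0409 without control replicate 1, 0.0392 when genes under a mean of 5 TPM were left out and 0.00539 with limma-voom on the rebuilt reads. Tet2, the member known for restraining inflammatory genes in macrophages, was at 7.05, 7.19 and 6.82 TPM and at 6.80, 6.15 and 6.66 TPM. These groups were just apart on the other side, at -0.10 on the log2 scale (adjusted p = 0.515, limma with BH). Tet1 was at 0 TPM in every library. A count of 0 does not show absence, and Tet1 is only listed at 0.

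**Figure D3:**
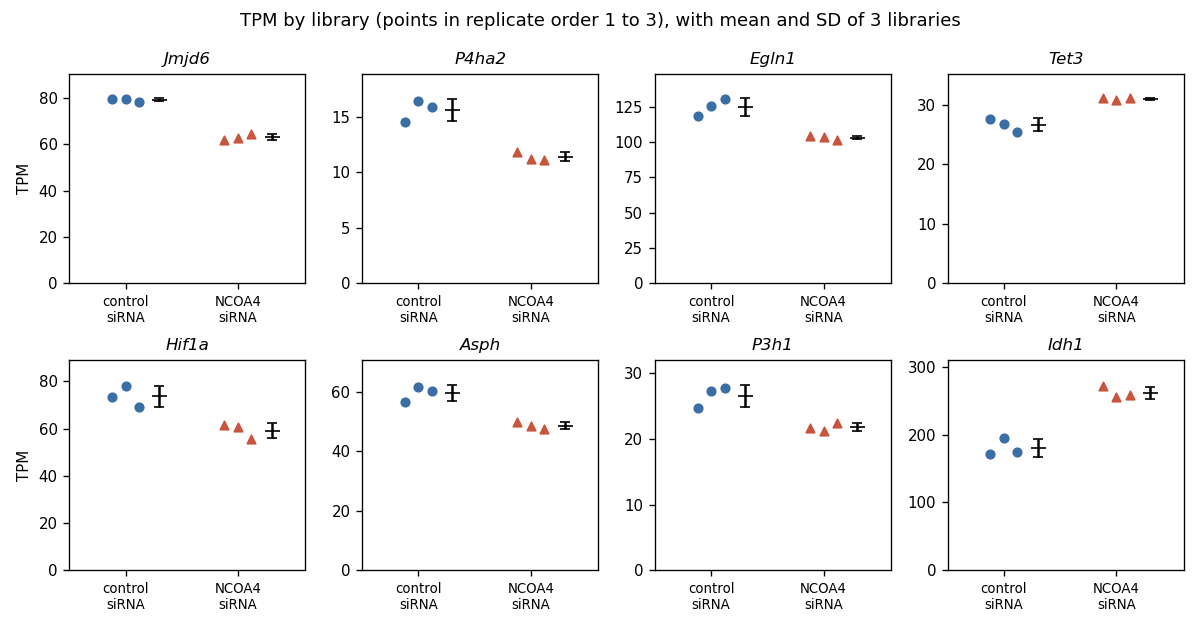
TPM in each library (points, in replicate order 1 to 3) with the mean and SD of 3 libraries for Jmjd6, P4ha2, Egln1, Tet3 and for Hif1a, Asph, P3h1 and Idh1, on axes that start at 0. The groups do not overlap in any of the 8 genes. Tet3 and Idh1 are higher and the others lower with NCOA4 siRNA, and Tet3 is the gene among them that missed the threshold.

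None of the 9 AlkB genes passed the threshold (limma, BH), beside 5.42% of all genes. Their groups overlapped in every case, while the groups did not overlap in 28.4% of all genes. At an unadjusted p under 0.05 (limma) there was 1 AlkB gene, Alkbh2, or 11.1% beside 21.6% of all genes. Limma-voom also called none of the 9, beside 10.9% of all genes. Alkbh2, which repairs alkylated DNA, was at 52.6, 44.8 and 52.8 TPM with control siRNA and at 41.4, 40.5 and 45.8 TPM with NCOA4 siRNA. Its log2 fold change of -0.23 had a 95% interval of -0.42 to -0.04 and an adjusted p of 0.162 (limma, BH). Alkbh5 and Fto remove methyladenosine marks from RNA. Alkbh5 was at 61.3, 69.0 and 69.7 TPM with control siRNA and at 61.5, 59.9 and 60.7 TPM with NCOA4 siRNA, so that control replicate 1 sat among the NCOA4 siRNA libraries. Its log2 fold change of -0.13 (adjusted p = 0.248, limma with BH) became -0.19 with an adjusted p of 0.0356 without control replicate 1. Fto was at 14.6 ± 0.318 and 15.3 ± 0.502 TPM (SD, n = 3 each). Alkbh7, a mitochondrial protein of programmed necrosis, was the most variable member, at 15.9, 13.9 and 24.4 TPM with control siRNA and at 20.2, 23.7 and 22.9 TPM with NCOA4 siRNA. Control replicate 3 lay above every other library. Its log2 fold change of 0.33 had a 95% interval of -0.13 to 0.79, and it became 0.56 with an adjusted p of 0.0478 without control replicate 3. Alkbh8, which modifies the wobble uridine of tRNA for selenoprotein synthesis, was at 16.7 ± 1.68 and 18.0 ± 0.412 TPM, Alkbh3, another repair enzyme, at 28.7 ± 3.15 and 30.8 ± 0.613 TPM, and Alkbh1, which acts on tRNA, at 23.2 ± 1.79 and 24.4 ± 1.24 TPM (SD, n = 3 each). Alkbh4 and Alkbh6 were at 14.8 ± 1.98 and 15.1 ± 2.21 TPM and at 10.9 ± 1.49 and 10.7 ± 0.282 TPM (SD, n = 3 each). Ogfod1, which hydroxylates a proline of a small ribosomal subunit protein, was at 21.6, 24.6 and 24.2 TPM and at 26.04, 23.3 and 26.1 TPM, with overlapping groups.

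The 36 members that did not pass were measured closely enough to bound their change. The 95% interval of 35 of them lay within a 1.5-fold change in either direction, with Alkbh7 as the exception, and that of 31 included 0. The groups did not overlap in 15 members (38.5%), 11 lower and 4 higher, beside 28.4% of all genes, 11.8% lower and 16.6% higher. The lower ones were Jmjd1c, Kdm4b, Kdm5b, Phf2, Jmjd6, Egln1, Tet2, P4ha1, P4ha2, Plod1 and Plod2, and the higher ones were Kdm4a, Kdm4c, Hif1an and Tet3.

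The other dioxygenases of the family, a list of 23 genes, had 11 tested members. Of these 2 fell, 0 rose and 9 did not pass, beside 2.31% of all genes that fell. Without control replicate 1, and also after median centring, 3 fell, with Riox1, a ribosomal oxygenase, added. The share of all genes that fell was 2.68% without control replicate 1 and 4.50% after median centring. Asph, which hydroxylates aspartate and asparagine in growth-factor-like domains, was at 56.4, 61.7 and 60.3 TPM with control siRNA and at 49.7, 48.5 and 47.6 TPM with NCOA4 siRNA. It fell by 0.29 on the log2 scale (adjusted p = 0.0225, limma with BH). P3h1, the collagen prolyl 3-hydroxylase, was at 24.6, 27.2 and 27.7 TPM and at 21.7, 21.2 and 22.4 TPM, and it fell by 0.28 on the log2 scale (adjusted p = 0.0490, limma with BH). Both genes kept groups that did not overlap, and both lost the call without control replicate 2 or 3 or any NCOA4 siRNA library, with adjusted p-values of 0.0554 to 0.104 for Asph and 0.107 to 0.179 for P3h1. Asph and P3h1 also lost it with eBayes without a trend and with the replicate number as a block, and P3h1 without the filter on low TPM. Of 5 tested partners of collagen hydroxylation, none passed (limma, BH), while 2 (40%) had an unadjusted p under 0.05, beside 21.6% of all genes. P4hb, the partner of P4ha1 and P4ha2, was at 1605 ± 98.1 and 1389 ± 17.2 TPM (SD, n = 3 each), a difference of -0.21 on the log2 scale (adjusted p = 0.0815, limma with BH). P4hb passed as lower without control replicate 1, after median centring or quantile normalization, without mitochondrial genes and by limma-voom. Colgalt1, a collagen galactosyltransferase, passed as higher by limma-voom alone, which called 10.9% of all genes in either direction.

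In the list of HIF subunits and Vhl, 1 of 4 tested genes fell, beside 2.31% of all genes. This was Hif1a, a substrate of the HIF hydroxylases. It was at 73.4, 78.2 and 69.3 TPM with control siRNA and at 61.3, 60.6 and 55.5 TPM with NCOA4 siRNA. The groups did not overlap, and Hif1a fell from 73.6 ± 4.45 to 59.1 ± 3.17 TPM (SD, n = 3 each), which on the log2 scale is -0.31 (standard error 0.0616, adjusted p = 0.0361, limma with BH). This call was lost without any single library, with adjusted p-values of 0.0515 to 0.126. It was also lost without the filter on low TPM, with eBayes without a trend and with the replicate number as a block. The other tested genes of that list, Epas1, Arnt and Vhl, did not pass and had log2 fold changes of 0.06, 0.11 and 0.08.

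Supply of 2-oxoglutarate, ascorbate and iron to these enzymes was described by a list of 27 genes, of which 26 were tested, 1 rose, 0 fell and 25 did not pass, beside 3.11% of all genes that rose. The count that fell depended on the scaling, since Slc23a2, an ascorbate transporter, and Idh3a, a subunit of the mitochondrial isocitrate dehydrogenase, passed as lower after median centring. Sdhaf2, a succinate dehydrogenase assembly factor, was called higher by limma-voom. Of all genes, 4.50% passed as lower after median centring, and limma-voom called 10.9% in either direction. The gene that rose in the reported fit was Idh1, the cytosolic isocitrate dehydrogenase that makes 2-oxoglutarate. It was at 171, 195 and 174 TPM with control siRNA and at 271, 255 and 258 TPM with NCOA4 siRNA. The rise exceeded the spread within both groups, from 180 ± 13.0 to 261 ± 8.58 TPM (SD, n = 3 each), at 0.54 on the log2 scale (standard error 0.0584, adjusted p = 0.00597, limma with BH), and it passed under all 16 alternatives tried. The iron chaperones Pcbp1 and Pcbp2, and Pcbp3 and Pcbp4 of the same list, did not pass. In that order their log2 fold changes were -0.01, -0.12, -0.20 and -0.11 (adjusted p = 0.929, 0.186, 0.145 and 0.444, limma with BH). The groups did not overlap in Pcbp2 and Pcbp3, both lower with NCOA4 siRNA, and overlapped in Pcbp1 and Pcbp4. Of 26 genes in a list of histone, DNA and RNA methyltransferases, their relatives and partners, all were tested and none passed (limma, BH), beside 5.42% of all genes. At an unadjusted p under 0.05 (limma) there were 3, or 11.5%, beside 21.6% of all genes. The smallest adjusted p there was 0.0855, for Dot1l, which limma-voom called lower.

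**Figure D4:**
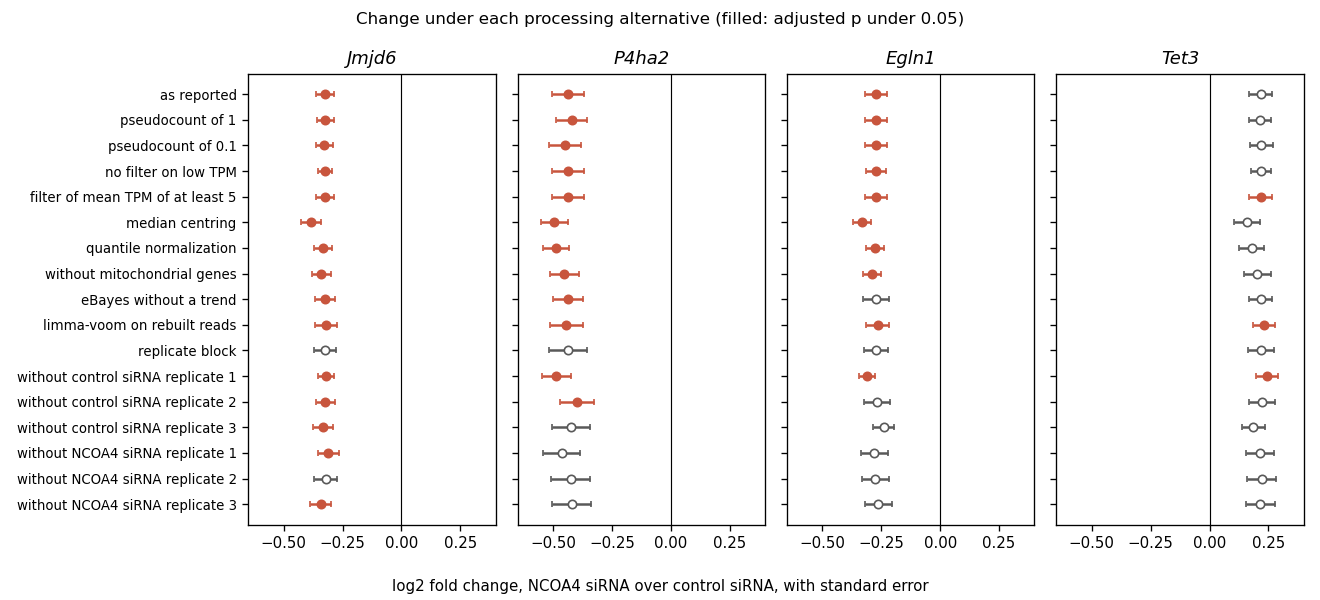
Log2 fold change of Jmjd6, P4ha2, Egln1 and Tet3 with its standard error as reported and under each of 16 processing alternatives, with filled points where the adjusted p was under 0.05. The sign is the same in every row, and the call is what changes. Jmjd6 keeps its call in 14 of the alternatives, P4ha2 in 11, Egln1 in 9, and Tet3 gains a call in 3.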

How the data were processed

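RNA-seq libraries (TruSeq Stranded mRNA kit) of J774 cells with control siRNA or NCOA4 siRNA were used, 3 per group, as their titles name them. The authors deposited TPM per gene and library, a read count per gene length set to a common total per library. The submitters' processing notes name Trimmomatic 0.33, HISAT2 2.1.0, featureCounts, edgeR and mm10. The authors used edgeR for normalization and their own test. The annotation and strand setting of the counting are not given in the sources used here.

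Symbols, positions (GRCm38) and exon lengths came from GENCODE M21, which named 55227 of 55487 genes. Reads were rebuilt from TPM and exon length. Of 21055 genes above 0 with a length, 98.6% gave whole reads in all 6 libraries within 0.02 of a read. These reads give the depth and an alternative test. Intervals on the fold change come from the fit.

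The test was limma 3.58.1 (R 4.3.3) on log2(TPM + 0.5), for genes averaging 0.5 TPM or more, with lmFit and eBayes with a trend, and Benjamini-Hochberg adjustment over 13829 genes. The fit was also run on simulated data in which 200 of 13609 genes were changed 2-fold. It recovered 87.5% of these, with a mean of 10.2 wrong calls. Changes as small as those of the members, and a library set apart like control replicate 1, were not simulated. The exact permutation test covers the 20 arrangements of the libraries. The limit for a call was an adjusted p of 0.05. The 16 alternatives changed the pseudocount (1 or 0.1), dropped the filter or raised it to 5 TPM, centred libraries on their medians, applied quantile normalization, took out mitochondrial genes, ran eBayes with no trend, used limma-voom on the rebuilt reads, added the replicate number as a block, or left out 1 library.

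The members, the gene lists and the tests were chosen with earlier results of these data known. Named are all 41 members, Ncoa4 and, from each list, the genes at an adjusted p under 0.05. P4hb, Colgalt1, Dot1l, Riox1, Sdhaf2, Slc23a2, Idh3a, the other HIF subunits, the iron chaperones, Pcbp3 and Pcbp4 were named after their values were seen. Of the 90 listed genes that are no members, 1 (Sc65) matched no symbol. Protein sequences were not used here.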

Additional observations from a re-analysis of the deposited data

How the results depend on the processing

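The count of dioxygenase genes at an adjusted p under 0.05 was 3, and it was 5 after median centring, 0 with the replicate number as a block, and between 0 and 5 with single libraries left out (5 without control replicate 1, 0 without NCOA4 siRNA replicate 2). The 0 members past the fold change threshold stayed 0 under all 16 alternatives. The median log2 fold change of the members was -0.048 after median centring and -0.027 after quantile normalization, against 0.010, and it was also below 0 without mitochondrial genes (-0.0043) and without control replicate 2 (-0.0051). Genes of the 5 other lists that passed numbered 4, and 2 without the filter, 8 with median centring or limma-voom, 1 with eBayes without a trend or the block, and 1 to 5 with single libraries left out. All genes at an adjusted p under 0.05 numbered 750, and 970 after median centring, 1485 with limma-voom and 499 without the filter. They numbered 404 with eBayes without a trend, 161 with the block, and 127 to 807 with single libraries left out. Those past the fold change as well numbered 163, 87 with the block and 77 to 172 with single libraries left out. The block fit has fewer residual degrees of freedom. Deviations of same-numbered libraries correlated at 0.028, -0.019 and 0.023, so the replicate numbers showed no sign of pairing. With 3 libraries per group these values cannot decide whether the samples were paired. Under the block the adjusted p was 0.0532 for Jmjd6, 0.0873 for P4ha2 and 0.0900 for Egln1, and Egln1 had 0.0663 with eBayes without a trend. Among the 36 members that did not pass, 15 changed sign under at least 1 alternative without passing, and 5 (Tet3, Alkbh5, Alkbh7, P4ha1 and Plod1) passed under at least 1, with the sign they had. The cause of these shifts was not tested. The precision rests on 3 libraries per group.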
